A study of Mus musculus with 11 samples.

Results

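Immunoglobulin genes were followed in bulk RNA-Seq of kidney cortex from 11 aged mice, to describe how much antibody transcript each kidney held, which heavy-chain classes and light chains it used, and whether single V genes dominated. The members were all rows of the deposited count table annotated as an immunoglobulin variable gene or an immunoglobulin constant gene, 231 of the 53801 genes listed. They comprised 218 V genes (113 heavy-chain, 102 kappa and 3 lambda) and 13 constant genes (8 heavy-chain, 1 kappa and 4 lambda). Reads were counted on 222 of them, and the 9 without a read in any mouse were Gm42543, Ighv1-16, Ighv1-62-1, Ighv7-2, Ighv8-2, Ighv8-4, Ighv8-6, Igkv7-33 and Igkv8-26.

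The 5 floxed control and 6 Cpt1aCKO mice were males on a mixed strain background. All were aged for 2 years, and all had been fed doxycycline for 3 weeks between 5 and 8 weeks of age. Cpt1aCKO mice combined the floxed Cpt1a allele with the Pax8-rTTA;tetO-Cre transgenes, which delete Cpt1a in kidney tubule cells under an inducible promoter. Floxed control mice carried the same floxed allele. Blot labels of the study name aged mice as carrying Pax8 with LC1 (a tetO-Cre line) or Pax8 alone. They list the numbers of S7762, S2582 and S2578, and S2152 and S7601 were not seen. Which of the listed mice carried LC1 could not be read from the text of the labels. Each mouse was 1 library and is called by its label. Replicates 1 to 5 of the floxed controls were mice S2152, S7601, S7762, S2582 and S2578, and replicates 1 to 6 of Cpt1aCKO were S2155, S2394, S2397, S7602, S7763 and S2577.

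An antibody is built from heavy chains and light chains. In each developing B cell a V gene is joined to J segments (and D segments in the heavy chain), and the assembled V region is spliced to a constant gene, so that one B cell and all its descendants normally use a single heavy-chain and a single light-chain V gene. The heavy-chain constant gene sets the class, with Ighm for IgM, Ighd for IgD, the Ighg genes for IgG, Ighe for IgE and Igha for IgA. Plasma cells, the antibody-secreting end stage of B cells, transcribe these genes at very high levels, and IgA plasma cells are best known from mucosal tissues. Tubule cells do not rearrange these loci, and such transcripts in kidney are usually read as coming from B-lineage cells in the tissue or in its blood.

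Reads on genes came to 39628721 to 57459929 per mouse. Cpt1a, the deleted gene, was read as a check of the labels and fell from 472 ± 54.4 CPM (reads scaled to library size by TMM, mean ± SD, n = 5) to 66.5 ± 21.1 CPM (n = 6), with an adjusted p of 6.61e-05 in edgeR's quasi-likelihood test. Summed markers of kidney cortex (10 genes, Slc34a1 and Umod among them) lay between 20399 and 28930 CPM in every mouse. Library S7602 carried extra reads on olfactory receptor genes, 159 CPM against 9.04 to 39.97 CPM in the other 10 mice. Its part in V genes with few reads in that library was not tested.

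The immunoglobulin load varied far more between mice than between genotypes. Summed over all 231 members it was 292, 625, 323, 694 and 467 CPM in floxed control mice S2152, S7601, S7762, S2582 and S2578. In Cpt1aCKO mice S2155, S2394, S2397, S7602, S7763 and S2577 it was 127, 455, 1473, 441, 378 and 701 CPM. Both the lowest and the highest value belonged to Cpt1aCKO mice, with an 11.6-fold range over the 11 mice, and the controls lay between them. The means were 480 ± 178 CPM (SD, n = 5) and 596 ± 467 CPM (SD, n = 6), a log2 ratio of 0.31 that became -0.19 when S2397 was left out. Members took 0.0133% to 0.148% of the reads on genes, or 5703 to 78536 reads. In bulk tissue, more cells of a type and more RNA per cell cannot be told apart. Within mice numbered S2 the means were 484 CPM (n = 3) and 689 CPM (n = 4), and within those numbered S7 they were 474 CPM (n = 2) and 409 CPM (n = 2). Genes of the T cell receptor varied less, from 6.56 to 12.2 CPM, and were also highest in S2397.

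**Figure D1:**
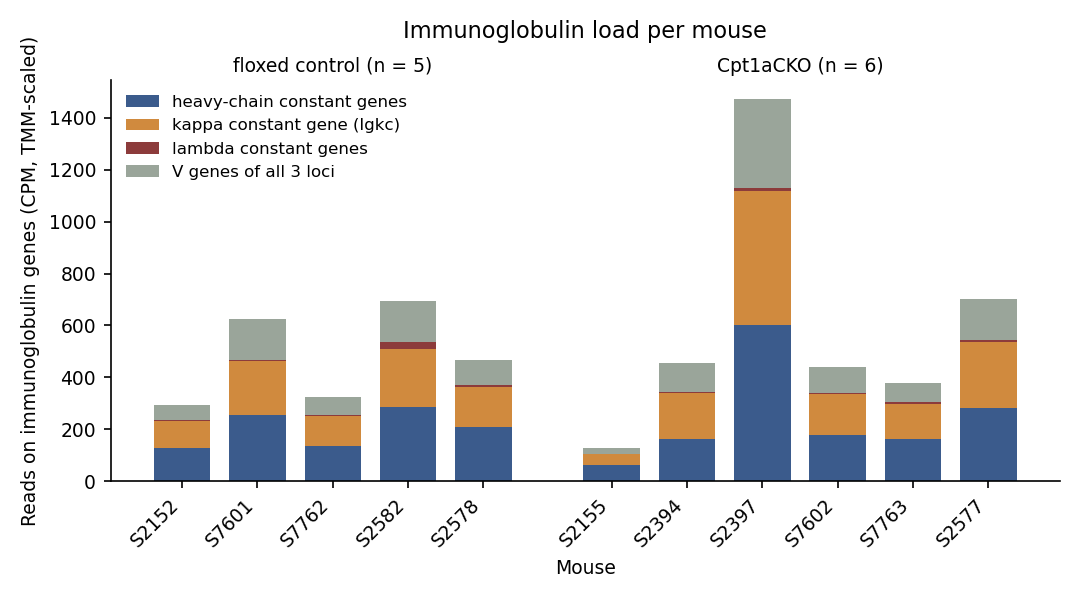
Summed reads on immunoglobulin genes in each mouse, in CPM after TMM scaling, stacked by heavy-chain constant, kappa constant, lambda constant and V genes. S2397 reached 1473 CPM and S2155 held 127 CPM, both Cpt1aCKO, and the 5 floxed control mice lay from 292 to 694 CPM.

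Constant genes gave most of this load, 106 to 1129 CPM, and V genes 21.4 to 344 CPM. Igkc, the kappa constant gene (chromosome 6, 70726435 to 70726966, GRCm38), was measured at 103, 208, 114, 223 and 154 CPM in floxed control mice in the order above. It was measured at 41.1, 178, 519, 156, 134 and 257 CPM in Cpt1aCKO mice. The groups overlapped, and S2397 and S2155 again marked the ends. Its log2 fold change was 0.41 ± 0.53 (SE), with an adjusted p of 0.944 in edgeR, and it became -0.068 without S2397. Heavy-chain constant reads were 0.897 to 1.51 times the light-chain constant reads, lowest in S2394 and highest in S2155. There were 7.74 to 15.9 heavy-chain V reads per 100 heavy-chain constant reads and 39.2 to 55.4 kappa V reads per 100 Igkc reads, with neither ratio separating the genotypes.

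The heavy-chain class in use differed widely among mice of either genotype. IgA made up 90.6%, 53.9%, 54.3%, 9.69% and 60.5% of heavy-chain constant reads in floxed control mice S2152, S7601, S7762, S2582 and S2578. In Cpt1aCKO mice S2155, S2394, S2397, S7602, S7763 and S2577 it made up 78.6%, 19.0%, 25.2%, 39.5%, 67.0% and 32.8%. IgA was thus the largest class in 4 of 5 control and 2 of 6 Cpt1aCKO mice. The difference of the means was -10.1 percentage points (53.8 ± 28.9% and 43.7 ± 23.9%), smaller than the SD of either genotype. Without S2152 it was -0.90 points and without S2582 it was -21.1 points. Exact (Clopper-Pearson) 95% intervals of the class shares were at most 1.52 points to either side, and cover counting error only. Within the S7 numbers, IgA averaged 54.1% (n = 2) and 53.3% (n = 2), and within the S2 numbers 53.6% (n = 3) and 38.9% (n = 4).

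IgM was the largest class in S2582 (76.9%), S2394 (76.2%), S2397 (44.9%) and S2577 (52.1%), and its share in the other mice ran from 4.77% in S2152 to 29.9% in S2578. IgG led in 1 mouse, S7602, at 44.7%, and lay between 4.43% and 29.5% in the rest. IgD, carried mainly by naive B cells, stayed between 0.0425% and 0.490%, lowest in S2394 and highest in S2155. Ighe reads were found in 2 mice, 11 in S7762 (0.173% of heavy-chain constant reads, 95% interval 0.0863% to 0.309%) and 27 in S2397 (0.0842%, 0.0555% to 0.123%). The other 9 mice had 0, where the upper end of the same 95% interval was at most 0.129%, in the shallowest, S2155. Counted per kilobase of exon, IgA made up 6.97% to 86.2%, IgM 6.42% to 80.2% and IgG 5.54% to 56.8%.

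**Figure D2:**
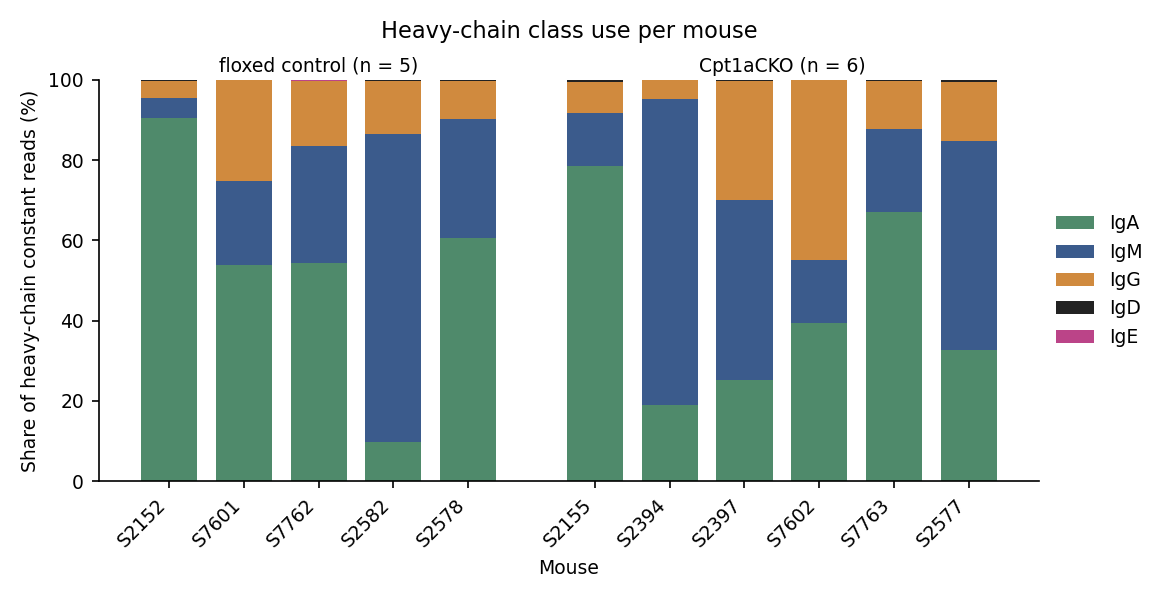
Share of each heavy-chain class among reads on the 8 heavy-chain constant genes, in percent, for every mouse. IgA ranged from 9.69% (S2582) to 90.6% (S2152), and IgM led in S2582, S2394, S2397 and S2577.

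In level, Igha (chromosome 12, 113254830 to 113260236) was the steadiest of the switched classes. It was measured at 117, 137, 73.5, 27.7 and 127 CPM in floxed control and 50.1, 30.8, 152, 70.4, 110 and 92.3 CPM in Cpt1aCKO mice, a 5.47-fold range. Its log2 fold change was -0.19 ± 0.47 (adjusted p = 0.976, edgeR). Ighm (chromosome 12, 113418558 to 113422730) spanned 43.9-fold, with 6.16, 53.2, 39.7, 220 and 62.5 CPM in floxed control and 8.38, 123, 270, 28.1, 34.2 and 147 CPM in Cpt1aCKO mice. Its log2 fold change was 0.41 ± 0.99 (adjusted p = 0.975, edgeR). The low mice S2152 and S2155 were therefore low in Ighm while both kept an Igha level within the range of the others.

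Among the IgG subclasses, Ighg2c and Ighg2b (chromosome 12) carried most reads in every mouse. Ighg2c took 38.0% to 80.8% of IgG reads and was the largest subclass in 10 of 11 mice, and in S2155 Ighg2b led with 48.9% (95% interval 42.1% to 55.7%, of 221 reads). Ighg2b levels were 1.48 to 12.7 CPM in floxed control mice, with 2.41 to 11.3 CPM in 5 Cpt1aCKO mice and 68.4 CPM in S2397. The log2 fold change of 1.25 ± 0.93 (adjusted p = 0.889, edgeR) became -0.10 without S2397. Ighg1 took 0.898% to 16.9% and Ighg3, the subclass typical of responses to polysaccharide, 0.231% to 9.28%. The largest Ighg3 shares were in S2394 (31 of 334 IgG reads) and S2582 (6.30%), the mice with the largest IgM shares. For Ighg2c, Ighg1, Ighg3 and Ighd the log2 fold changes were 0.84, 0.03, 0.42 and 0.97, none with an adjusted p below 0.886 in edgeR.

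Kappa chains outnumbered lambda chains in all mice. Lambda constant reads were 3.21%, 3.02%, 5.69%, 10.4% and 3.37% of light-chain constant reads in floxed control mice, and 2.23%, 1.51%, 1.63%, 2.12%, 3.61% and 2.39% in Cpt1aCKO mice. The genotypes overlapped only through S7763 against S2152, S7601 and S2578, with means of 5.14 ± 3.14% and 2.25 ± 0.75%, and the difference of -2.89 points was -1.58 without S2582. Taken from V reads, the lambda share was 4.45% to 15.01% in floxed control and 1.65% to 6.43% in Cpt1aCKO mice. Means of the lambda constant share were 5.66% and 1.94% within the S2 numbers and 4.36% and 2.87% within the S7 numbers.

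Iglc1, the constant gene used with Iglv1 (chromosome 16, 19061618 to 19062071), carried this difference. It was at 2.57, 5.47, 6.29, 22.3 and 3.90 CPM in floxed control mice and at 0.669, 1.61, 4.52, 1.89, 3.68 and 4.06 CPM in Cpt1aCKO mice. S2582 stood far above all others and the remaining mice overlapped. Its log2 fold change of -1.56 ± 0.59 had an adjusted p of 0.772 in edgeR, and without S2582 it was -0.73. Iglc1 took 72.4% to 91.1% of lambda constant reads in floxed control and 52.6% to 73.2% in Cpt1aCKO mice, a share that overlapped between S2578 and S7763. Iglc2 and Iglc3, whose coding sequences differ at 12 of 315 bases so that short reads may be split between them, had log2 fold changes of 0.24 and 0.01. A single read was counted on Iglc4. Of the lambda V genes, Iglv1 took 84.9% to 100% of reads in every mouse, Iglv2 up to 13.4% (S2152) and Iglv3 up to 8.35% (S2397).

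V gene use was described by the share of the leading gene and by the effective number of genes, the inverse Simpson index, which equals the number of equally used genes that would give the same concentration. Because many B cell clones can share a V gene, these measures describe V gene dominance and are not counts of clones. Mouse S2394 (Cpt1aCKO) stood apart in both chains. In its heavy-chain V reads Ighv3-6 took 77.5% (852 of 1100 reads, 95% interval 74.9% to 79.9%), against 2.76% to 6.74% in the other 10 mice. In its kappa V reads Igkv12-46 took 82.9% (3106 of 3746 reads, 81.7% to 84.1%), against 0.657% to 6.50% elsewhere. The effective number of V genes was 1.66 for the heavy chain and 1.45 for kappa in S2394, against 13.2 to 28.6 and 12.2 to 35.5 in the others.

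These germline V genes are shown because their reads carry the result, each beside its closest relative among the V genes of the table, with the bases that differ between the pair in capitals. The sequences are the last 300 bases of the V exon (298 for the Igkv12 pair), from GENCODE M21 transcripts on GRCm38, and all 4 lie on the minus strand. Ighv3-6 (chr12:114288152-114288451) and Ighv3-1 (chr12:113964388-113964687) differ at 20 bases, and Igkv12-46 (chr6:69764523-69764820) and Igkv12-41 (chr6:69858420-69858717) at 15.
Ighv3-6: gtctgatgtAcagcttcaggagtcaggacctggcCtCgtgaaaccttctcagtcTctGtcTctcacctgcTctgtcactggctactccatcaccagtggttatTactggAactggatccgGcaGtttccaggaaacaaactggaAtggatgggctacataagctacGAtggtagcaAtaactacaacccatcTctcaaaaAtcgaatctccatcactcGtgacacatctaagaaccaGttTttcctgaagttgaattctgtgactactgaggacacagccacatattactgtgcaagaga
Ighv3-1: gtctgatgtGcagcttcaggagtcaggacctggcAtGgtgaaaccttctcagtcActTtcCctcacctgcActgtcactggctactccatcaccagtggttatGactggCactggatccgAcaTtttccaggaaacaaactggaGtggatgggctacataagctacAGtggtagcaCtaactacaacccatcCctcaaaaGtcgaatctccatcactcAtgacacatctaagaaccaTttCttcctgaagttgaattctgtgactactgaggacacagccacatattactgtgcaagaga
Igkv12-46: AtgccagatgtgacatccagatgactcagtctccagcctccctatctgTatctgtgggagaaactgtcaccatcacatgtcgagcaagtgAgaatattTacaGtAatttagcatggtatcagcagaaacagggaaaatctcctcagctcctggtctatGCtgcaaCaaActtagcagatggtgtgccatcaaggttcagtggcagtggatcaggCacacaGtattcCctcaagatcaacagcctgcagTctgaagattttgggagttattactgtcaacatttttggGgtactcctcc
Igkv12-41: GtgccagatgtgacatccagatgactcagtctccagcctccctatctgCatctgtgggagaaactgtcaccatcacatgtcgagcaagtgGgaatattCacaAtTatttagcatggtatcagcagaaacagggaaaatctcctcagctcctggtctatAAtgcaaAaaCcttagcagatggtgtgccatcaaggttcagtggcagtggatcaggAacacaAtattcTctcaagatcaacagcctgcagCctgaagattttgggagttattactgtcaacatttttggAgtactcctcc

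The relatives were not high in S2394, where Ighv3-1 had 0 reads and Igkv12-41 had 14. Over all 11 mice Ighv3-1 held 24 reads against 1456 for Ighv3-6, and Igkv12-41 held 332 against 4154 for Igkv12-46. In level, Ighv3-6 was at 0.915, 1.54, 0.446, 0.851 and 1.31 CPM in floxed control mice and at 0.312, 19.5, 3.02, 0.782, 0.997 and 1.48 CPM in Cpt1aCKO mice, so S2394 was above all others. Igkv12-46 was at 71.2 CPM in S2394 and at 0.178 to 3.72 CPM in the other 10 mice. The genotype contrast took its sign from this 1 mouse for Igkv12-46, with a log2 fold change of 2.61 ± 1.41 (adjusted p = 0.863, edgeR) that became -0.25 without S2394. For Ighv3-6 it was 2.10 ± 0.99 (adjusted p = 0.852, edgeR) and 0.38 without S2394. With the leading gene removed, the remaining V reads of S2394 had effective numbers of 18.0 (heavy chain) and 22.0 (kappa). With their own leading gene removed, the other mice had 22.3 to 35.3 (heavy chain) and 16.7 to 38.0 (kappa), so that S2394 was the lowest in the heavy chain and lay within the range in kappa.

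**Figure D3:**
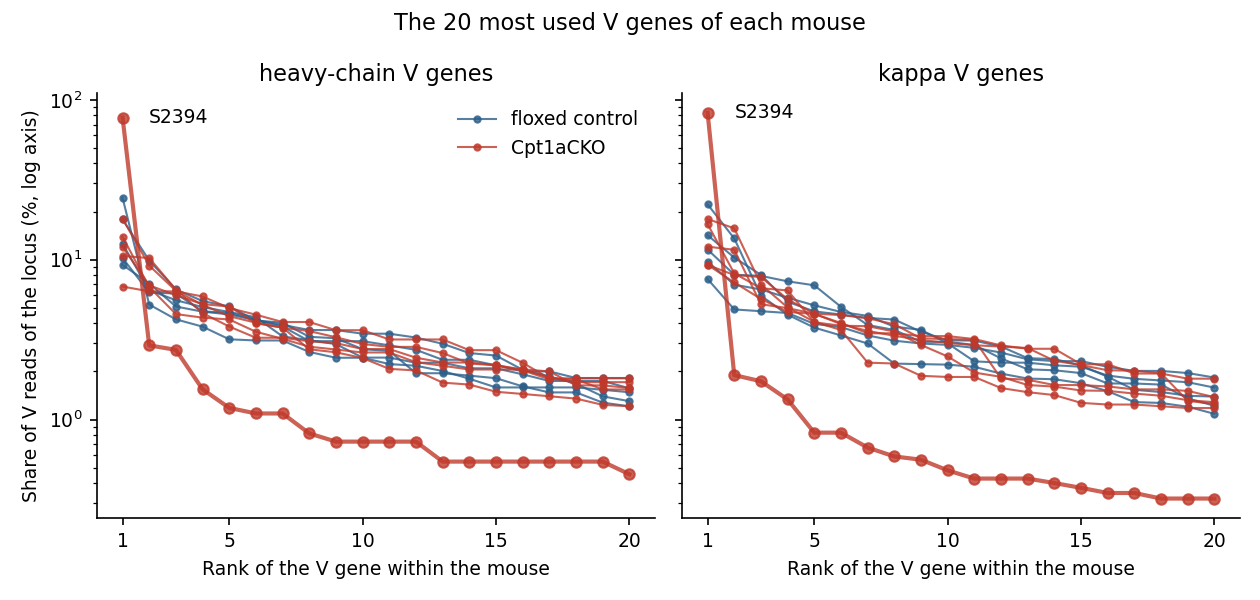
Share of V reads of the locus taken by the 20 most used V genes of each mouse, ranked within the mouse, on a log axis, for heavy-chain (left) and kappa (right) V genes. S2394 starts at 77.5% and 82.9% and its second genes take 2.91% and 1.90%, while the other 10 mice start between 6.79% and 24.4% (heavy chain) and between 7.57% and 22.2% (kappa).

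J segments, which are not members and are counted on other reads, were likewise concentrated in S2394. Its heavy-chain J reads fell on Ighj1 for 89.1% (106 of 119), against 0% to 22.6% in the other mice, and its kappa J reads on Igkj1 for 89.3% (549 of 615), against 15.97% to 35.9%. The leading heavy-chain J segment elsewhere was Ighj2, Ighj3 or Ighj4 at 31.0% to 64.3%, where S2155 had 14 and S2152 had 26 heavy-chain J reads in all. The 2 segments (Ighj1 at chr12:113429781-113429833, minus strand, and Igkj1 at chr6:70722562-70722599, plus strand, GENCODE M21 on GRCm38) are printed as the leading J segments of S2394.
Ighj1: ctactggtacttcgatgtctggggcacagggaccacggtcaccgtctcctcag
Igkj1: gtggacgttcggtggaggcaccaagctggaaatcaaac

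S2394 thus held 1 leading V gene and 1 leading J segment in each chain, IgM as its main class (5378 of 7059 heavy-chain constant reads), the lowest IgD share and a lambda share of 1.51%, the lowest of the 11 mice. Its total load of 455 CPM was the median of all mice. Counts per gene do not join V, J and constant reads of a single transcript, so whether these leading genes lie in the same cells was not tested.

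**Figure D4:**
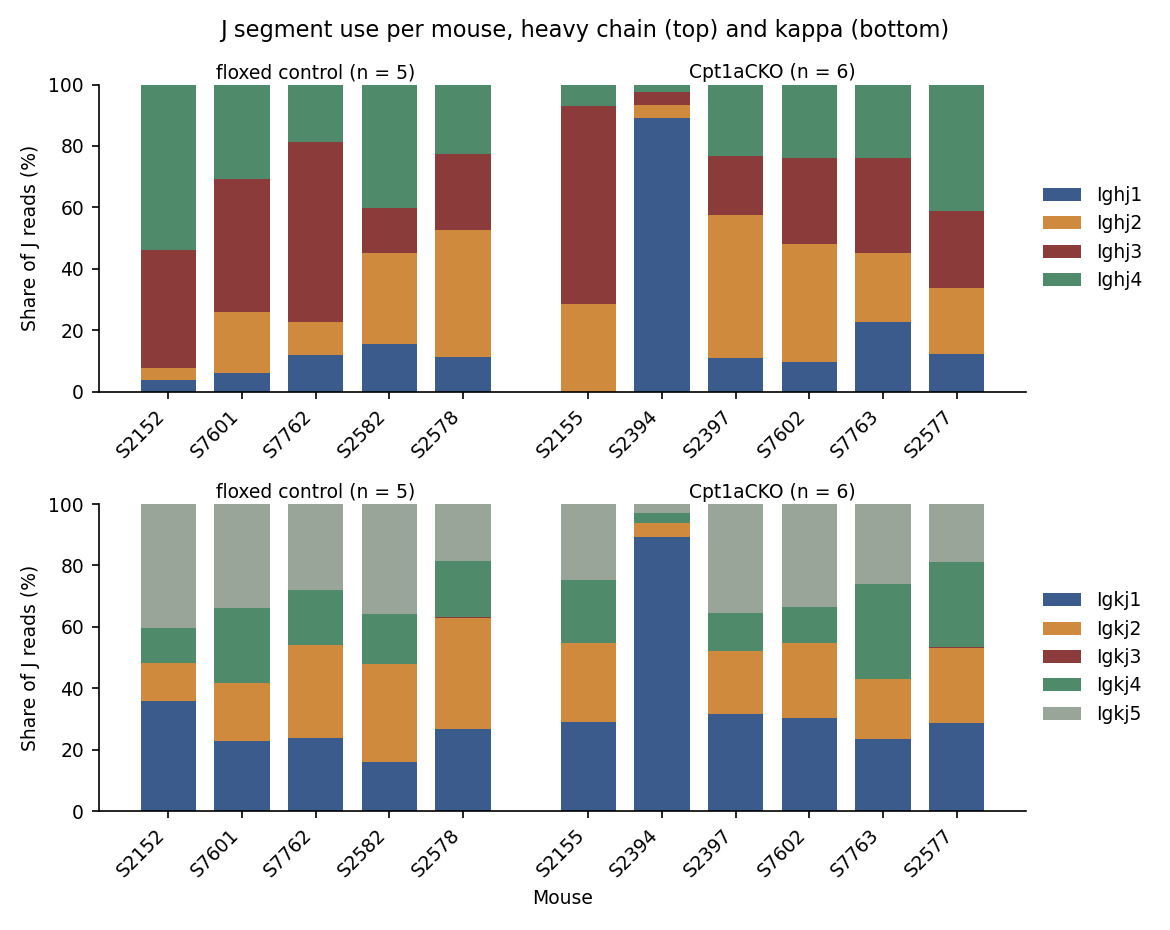
Share of each J segment among heavy-chain J reads (top, Ighj1 to Ighj4) and kappa J reads (bottom, Igkj1 to Igkj5) in every mouse, in percent. Ighj1 and Igkj1 took 89.1% and 89.3% in S2394, and no segment passed 64.3% (heavy chain) or 40.5% (kappa) in another mouse.

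S7601 (floxed control) was next in concentration. Ighv1-75 took 24.4% of its heavy-chain V reads (461 of 1890, 95% interval 22.5% to 26.4%) and Igkv4-55 took 22.2% of its kappa V reads (1328 of 5989, 21.1% to 23.3%). Ighv1-75 was close to absent elsewhere, with 29 reads in S2397, 1 each in S2578 and S7763 and 0 in the other 7 mice. The mice were on a mixed strain background, and its part in V gene use that differed between mice was not tested. Igkv4-55 was used more widely and also led in S7762 (9.71%), S2582 (14.2%) and S7602 (9.26%). The leading heavy-chain V gene of S7601 and its closest relative are shown in the same way, Ighv1-75 (chr12:115833950-115834249) with Ighv1-84 (chr12:115980702-115981001), 12 bases apart, both on the minus strand of GRCm38.
Ighv1-75: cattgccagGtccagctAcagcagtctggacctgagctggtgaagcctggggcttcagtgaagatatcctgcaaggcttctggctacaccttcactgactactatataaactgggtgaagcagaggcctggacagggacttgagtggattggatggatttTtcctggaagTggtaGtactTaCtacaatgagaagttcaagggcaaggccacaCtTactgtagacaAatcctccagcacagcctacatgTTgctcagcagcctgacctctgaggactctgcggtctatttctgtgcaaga
Ighv1-84: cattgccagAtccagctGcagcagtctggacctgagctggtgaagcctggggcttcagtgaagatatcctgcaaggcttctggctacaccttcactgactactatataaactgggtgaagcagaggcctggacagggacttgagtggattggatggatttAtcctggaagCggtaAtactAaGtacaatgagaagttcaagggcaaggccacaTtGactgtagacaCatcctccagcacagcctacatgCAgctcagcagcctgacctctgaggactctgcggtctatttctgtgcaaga

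Leading heavy-chain V genes mostly differed between mice, with 10 different genes over 11 mice, but several were also used elsewhere. Ighv3-6, for example, came second in S2152, S2155 and S7763. Some leads were narrow, with 15 against 14 reads in S2155 and 130 against 126 in S7602. In floxed control mice they were Ighv5-17 in S2152 (12.5%), Ighv1-75 in S7601, Ighv14-4 in S7762 (9.27%), Ighv1-5 in S2582 (17.9%) and Ighv1-84 in S2578 (10.2%). In Cpt1aCKO mice they were Ighv7-3 in S2155 (6.79%), Ighv3-6 in S2394, Ighv6-6 in S2397 (18.0%), Ighv1-53 in S7602 (10.6%), Ighv5-17 in S7763 (13.9%) and Ighv6-3 in S2577 (12.1%). Ighv5-17 was the 1 gene that led in 2 mice, which were of different genotype. The intervals of these shares reached at most 3.55 points to either side, in S2155 with 221 heavy-chain V reads.

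In kappa, 8 different genes led in the 11 mice. Besides Igkv4-55 in 4 mice and Igkv12-46 in S2394, the leading genes were Igkv1-110 in S2152 (7.57%), Igkv3-2 in S2578 (11.6%), Igkv1-117 in S2155 (9.28%), Igkv8-30 in S2397 (16.7%), Igkv19-93 in S7763 (17.9%) and Igkv12-44 in S2577 (12.1%). Igkv1-110 was used in all 11 mice, with 1.90% to 8.01% of kappa V reads and a median of 6.97%. Its close relative Igkv1-117, 10 of 313 bases apart, had 1.06% to 9.28%. Reads were found in every mouse for 37 of 102 kappa and 20 of 113 heavy-chain V genes, at unequal depths of 722 to 13632 kappa and 221 to 4292 heavy-chain V reads per mouse.

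By family, Ighv1 (53 genes) took on average 42.0% of heavy-chain V reads, from 11.6% in S2394 to 66.1%, and Igkv4 (26 genes) 18.2% of kappa V reads, from 3.42% to 36.4%. The averages of Ighv1 were 47.6 ± 12.8% in floxed control and 37.3 ± 17.3% in Cpt1aCKO mice, and those of Igkv4 were 23.0 ± 9.80% and 14.3 ± 7.09%, both within the spread of the mice. By place in the locus, the 57 of 113 heavy-chain V genes nearest to Ighm (within 1190 kb) took 59.8% of reads on average, with 35.4% in S7601 and 91.2% in S2394 as the ends. The 51 of 102 kappa V genes nearest to Igkc (within 1318 kb) took 61.8%, from 48.2% to 91.6%.

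The effective number of heavy-chain V genes was 24.8, 13.2, 28.6, 16.1 and 26.8 in floxed control mice and 27.8, 1.66, 17.0, 24.5, 24.2 and 24.2 in Cpt1aCKO mice. Outside S2394 the genotypes covered a like range, and the difference of the means, -2.02, was 1.62 without S2394. For kappa it was 35.5, 12.2, 25.6, 17.8 and 20.5 in floxed control and 27.6, 1.45, 18.2, 25.6, 13.8 and 21.1 in Cpt1aCKO mice, a difference of -4.36 that was -1.06 without S2394. Thinned to the 221 heavy-chain V reads of the shallowest mouse, the values were 12.8 to 26.9 in floxed control mice and 15.9 to 27.8 in the 5 Cpt1aCKO mice other than S2394 (1.67). Within the S2 numbers the means were 22.6 and 17.7 for the heavy chain and 24.6 and 17.1 for kappa, and within the S7 numbers 20.9 and 24.3, and 18.9 and 19.7.

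V genes with at least 1 read numbered 104 to 188 per mouse, lowest in S2155 and S2394 and highest in S2397. S7602, with its extra olfactory receptor reads, came second with 168, but with a minimum of 10 reads it held 87, below S7601 (103), S2577 (100) and S2397 (124). The V use of 2 mice was compared by their overlap, the sum over genes of the smaller share. Among pairs without S2394, the median overlap in heavy-chain V use was 47.6% between floxed control mice (10 pairs), 43.7% between Cpt1aCKO mice (10 pairs) and 48.1% across genotypes (25 pairs). Pairs with S2394 overlapped by 17.0% to 23.0% and all others by 30.7% to 60.5%. For kappa the medians were 54.0%, 55.6% and 53.9%, and pairs with S2394 overlapped by 13.1% to 20.4% against 42.0% to 65.8%.

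The genotypes were then compared gene by gene. Of the 231 members, 96 had enough reads to be tested (85 V and 11 constant genes), and 135 did not pass this filter, which depends on reads in at least some mice. No member passed an adjusted p of 0.05 in edgeR's quasi-likelihood test, where 0.0165% of the 18160 genes tested did (3 genes), and DESeq2 called 0 members too. Below an unadjusted p of 0.05, the fitted value was above 0 for 2 members (2.08%), beside 3.35% of all genes, and below 0 for another 2 (2.08%), beside 2.57%. By DESeq2 there were 3 in each direction. The shares over all genes by DESeq2 are not given here, so these counts cannot be set beside them. No tested member had non-overlapping genotypes, beside 0.611% of all genes. Fitted log2 fold changes ran from -2.65 to 3.73, 53 above and 43 below 0, with a median of 0.07, and the median over all genes tested was 0.0060. Their median SE was 0.83, against 0.16 over all genes, so that only large differences could have been detected.

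S2397 weighed most on these counts. Of the 96 tested members, 45 had their highest CPM in that mouse. Without it 85 members were tested, and none was higher and 8 were lower at that unadjusted level. The median log2 fold change was then -0.52, and no member passed the adjusted threshold. The share over all genes in that fit is not given here, so the 8 cannot be set beside it. None was higher without S2577, 1 was higher without S2152, S7601 or S2578, 4 were lower without S2152 and 1 was lower without S2578. For these fits too the shares over all genes are not given here, so the counts cannot be judged against them. Of the 85 tested V genes, 13 had at least 50% of their CPM, summed over mice, in 1 mouse.

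The 5 members with the smallest p were Igkv4-74, Ighv1-84, Iglc1, Igkv4-61 and Ighv3-6, with adjusted p of 0.755 to 0.852 in edgeR. Igkv4-74 had 0, 0, 4, 2 and 16 reads in floxed control mice and 13, 0, 173, 4, 39 and 164 reads in Cpt1aCKO mice, so that S2397 and S2577 held most of them. Ighv1-84 had 11, 13, 6, 17 and 110 reads in floxed control and 0, 0, 5, 0, 12 and 15 reads in Cpt1aCKO mice, and its log2 fold change of -2.65 was -1.27 without S2578. Igkv4-61 had 2, 0, 11, 10 and 0 reads against 0, 22, 22, 96, 7 and 22, with the highest count in S7602, the library with extra olfactory receptor reads. In all of these genes the genotypes overlapped.

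Companion genes of B-lineage cells were set against Igkc across the 11 mice, on log2 CPM, with p-values from 100000 permutations adjusted over the 5 relations. Jchain, which joins the units of IgA and IgM polymers, was at 16.6 to 31.1 CPM in floxed control and 8.00 to 58.5 CPM in Cpt1aCKO mice. It followed Igkc most closely, with Pearson r = 0.969 (permutation p = 2e-05, adjusted p = 0.0001) and Spearman rho = 0.873 (permutation p = 0.00095, adjusted p = 0.00237). Without S2155 and S2397, the mice farthest from the median of Igkc, r was 0.859, and within the 6 Cpt1aCKO mice it was 0.992 (exact permutation p = 0.00278). Cd79a, a signaling chain of the B cell receptor, gave r = 0.786 (permutation p = 0.00388, adjusted p = 0.0074) and rho = 0.873 (permutation p = 0.00083, adjusted p = 0.00237), and r = 0.757 without those 2 mice.

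Mzb1, a chaperone of plasma cells, gave r = 0.833 (permutation p = 0.00444, adjusted p = 0.0074) and rho = 0.645 (permutation p = 0.0381, adjusted p = 0.0476), but r = 0.358 without S2155 and S2397, so this relation rested on them. Ms4a1, the B cell surface marker CD20, did not pass, with r = 0.592 (permutation p = 0.0556, adjusted p = 0.0556) and rho = 0.609 (permutation p = 0.0522, adjusted p = 0.0522), and r = 0.285 without those 2. Pigr, the epithelial receptor that carries polymeric IgA and IgM into secretions, ran the other way, with r = -0.770 (permutation p = 0.00793, adjusted p = 0.00991) and rho = -0.682 (permutation p = 0.0245, adjusted p = 0.0409), and r = -0.531 without those 2. Pigr was highest in S2155 (420 CPM), the mouse with the least immunoglobulin, and lowest in S2577 (156 CPM). Within Cpt1aCKO mice (n = 6) r was 0.816 for Cd79a (exact permutation p = 0.0542), 0.921 for Mzb1 (0.0278), 0.761 for Ms4a1 (0.104) and -0.845 for Pigr (0.0444). By Spearman rho the permutation p there was 0.0583 for Cd79a and for Mzb1, 0.136 for Ms4a1 and 0.103 for Pigr. The p-values within Cpt1aCKO mice were not adjusted, and S2155 and S2397 both belong to this genotype.

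**Figure D5:**
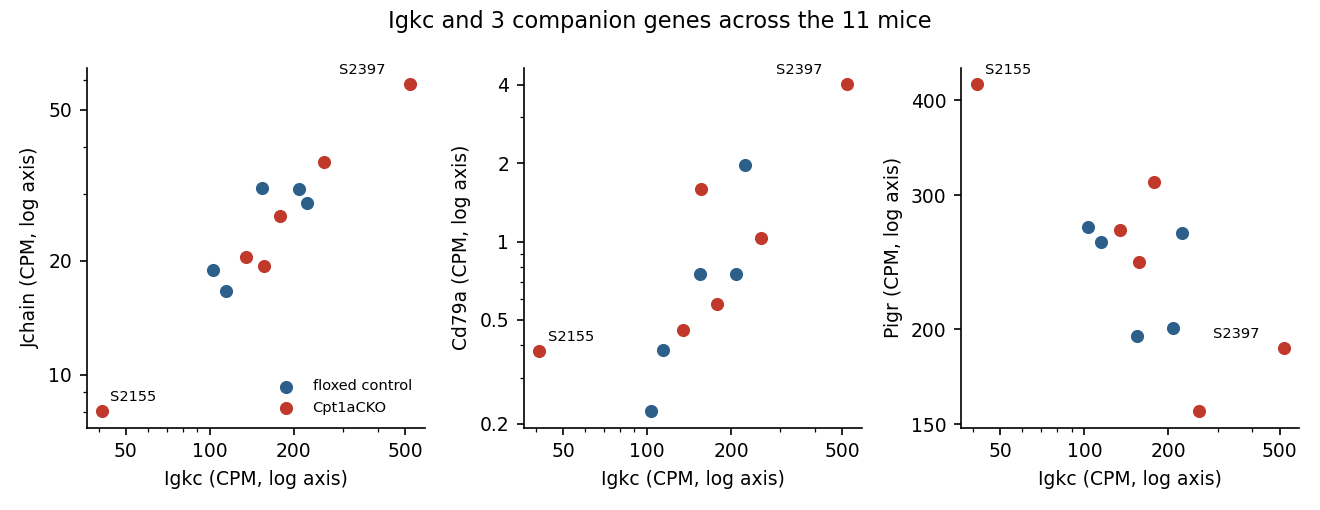
Levels of Jchain, Cd79a and Pigr against Igkc in the 11 mice, all in CPM after TMM scaling on log axes, with floxed control mice in blue and Cpt1aCKO mice in red. Jchain and Cd79a were higher in mice with more Igkc (r = 0.969 and 0.786), Pigr was lower (r = -0.770), and S2155 and S2397 lie at the ends.

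Markers of the cells that make antibody did not separate the genotypes. Of the plasma cell list 11 of 12 genes were tested, 0 were called and the median log2 fold change was 0.16, with Eaf2 the 1 gene at an unadjusted p under 0.05 (lower). Most of the summed level of this list came from Xbp1 (253 ± 52.3 and 251 ± 41.8 CPM), a secretory pathway factor that kidney epithelium also expresses, and Tnfrsf17, the receptor BCMA of plasma cells, held 59 reads over all mice. Of the B cell list 12 of 14 genes were tested with a median of 0.60, 0 called and 1 (Blk, a B cell kinase) higher at an unadjusted p. Over all genes tested, 3.35% were higher and 2.57% lower at that level, here and for the lists below. The summed B cell markers were 29.6 CPM in S2397 against 3.77 to 15.2 CPM in the others, next highest in S2582. The defining B cell factor Pax5 was at 0 in S2152 and S7601 and at most 0.390 CPM.

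In the same mouse S2397 the summed T cell markers (22.1 CPM against 7.61 to 14.1) and macrophage markers (330 CPM against 134 to 225) were also the highest of the 11 mice. Their part in its immunoglobulin load was not tested. Of the T cell list 10 of 10 genes were tested, with 2 higher at an unadjusted p and a median of 0.45, and of the macrophage list 10 of 10, with 2 higher and a median of 0.37. Over all genes tested, 3.35% were higher at that level. Fitted values were above 0 for 8 T cell and 9 macrophage genes. Those below 0 were Cd8a (-0.20), Trac (-0.04) and Csf1r (-0.09). Cd4, the coreceptor of helper T cells also carried by macrophages, was 0.383 ± 0.107 and 1.19 ± 0.64 CPM (adjusted p = 0.455, edgeR), and C1qa, a complement gene of tissue macrophages, 12.2 ± 2.27 and 18.0 ± 3.68 CPM (adjusted p = 0.527, edgeR). Neither gene overlapped between genotypes, as held for 0.611% of all genes tested, and neither passed the adjusted threshold. Adgre1, another macrophage gene, was 4.05 ± 1.35 and 4.71 ± 1.34 CPM (adjusted p = 0.930, edgeR) and overlapped.

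Genes that transport or bind antibody (11 genes, 10 tested) had a median of 0.22, with 0 called and 2 higher at an unadjusted p. Fcgrt, the neonatal Fc receptor that recycles IgG, was 473 ± 20.8 and 535 ± 43.0 CPM (adjusted p = 0.772, edgeR), and Fcer1g, the shared Fc receptor signaling chain, was 6.75 ± 1.34 and 9.27 ± 1.72 CPM (adjusted p = 0.738, edgeR). Pigr itself was 240 ± 37.9 and 265 ± 94.2 CPM (adjusted p = 0.956, edgeR). Among genes for B cell survival and homing (10 of 12 tested, median 0.11, 0 called, 1 lower at an unadjusted p), Ccl28, a chemokine that draws IgA plasma cells to mucosa, was 5.27 ± 3.24 and 2.31 ± 1.34 CPM (adjusted p = 0.826, edgeR). Tnfsf13b, the survival factor BAFF, was 1.56 ± 0.42 and 1.78 ± 0.98 CPM (adjusted p = 0.968, edgeR).

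Genes of lymphoid aggregates and germinal centers summed to 13.1 to 64.3 CPM per mouse. On average most of this was Bcl6 (27.3 ± 11.6 and 26.2 ± 20.4 CPM), a factor of germinal center B cells that other cells also express, and S1pr2, a receptor that holds B cells in germinal centers, was 3.41 ± 1.07 and 4.03 ± 0.99 CPM. Of 11 genes, matched by 13 rows, 5 were tested, 0 passed in either direction at an unadjusted p and the median was -0.0009. Ccl21a had no read in any mouse, and Cxcl13, a B cell attractant, was 2.85 ± 1.65 and 2.67 ± 1.64 CPM. Of the 7 genes for the surrogate light chain and V(D)J recombination, 3 were tested with a median of 0.51 and 0 called. Rag1 and Rag2, the recombinase genes, held 50 and 7 reads in all, and Dntt, which adds bases at the joins, held 28. S7602, the library with extra olfactory receptor reads, held 37 of the Rag1 and 11 of the Dntt reads. Of the kidney cortex markers (10 of 10 tested, median -0.14) 0 were called and 2 were lower at an unadjusted p, Umod (2477 ± 158 and 2112 ± 242 CPM) and Slc12a3 (772 ± 94.97 and 664 ± 86.5 CPM).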

How the data were processed

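Total RNA of kidney was made into stranded mRNA libraries (Illumina TruSeq), 1 per mouse. The authors aligned reads with STAR 2.7.3a and deposited raw counts per gene made with HTSeq. The submitters' processing notes also name DESeq2 and Cufflinks 2.2.1. For the genome build, the annotation and the handling of reads that match several genes, nothing was given in the sources used here. Deposited normalized values, fold changes and p-values of the authors' own comparison were not used. All 231 members were found in GENCODE M21 (GRCm38), which gave coordinates, exon lengths and germline sequences.

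Counts of all genes were filtered with filterByExpr (18160 genes kept), scaled by TMM and tested with edgeR 4.0.16 in R 4.3.3 (robust quasi-likelihood fit, genotype only, Benjamini-Hochberg adjustment over all genes tested, threshold 0.05). Log2 CPM used a prior count of 2. Summed loads, shares and effective numbers were computed per mouse in Python 3.11.15 and were not tested. Permutation tests were two-sided. Alternatives were DESeq2 1.42.0, other scalings, no filter, a covariate for the label numbers (S2 or S7), and leaving out single mice. No 2 libraries agreed within sampling noise (closest pair, 24.3 times that noise).

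The members and gene lists were chosen with earlier results of these data known. Named members were constant genes with at least 10 reads, the 3 V genes of highest mean share per locus, each mouse's leading V genes and the 5 smallest p, with up to 4 genes of each list. V genes are alike (median identity of the V exon to the closest relative 94.7%, and 98% or more for 20 of 218), and reads with somatic mutations may be lost or counted on a relative, which was not tested. Items withheld for evaluation are not reported here.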

Additional observations from a re-analysis of the deposited data

Results flagged for a closer look

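Values of 126 groups of 5 or 6 mice were examined for a single mouse whose gap to its nearest neighbour was large for the range of the group (Dixon's 95% limit). In 34 groups (27.0%) a mouse passed this limit. Chance gives about 5% for values not picked beforehand, but the V genes included were named partly because they led in a single mouse, and many values come from the same reads, so that the share cannot be read against that 5%.

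Mouse S2397 (Cpt1aCKO) passed it 12 times, always as the highest of its genotype. These values were Ighg2b (68.4 CPM), Ighg3 (3.71 CPM), Ighv6-6 (14.5 CPM), Ighv1-75 (0.544 CPM), Igkv8-30 (42.7 CPM), Igkv1-110 (16.9 CPM), Igkv1-117 (16.4 CPM), Iglv3 (0.675 CPM), the summed T cell receptor genes (12.2 CPM) and the B-lineage genes Mzb1 (4.18 CPM), Cd79a (4.03 CPM) and Ms4a1 (3.96 CPM).

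Mouse S2582 (floxed control) passed it 8 times as the highest, in Ighm (220 CPM), Ighg3 (2.39 CPM), the Ighg3 share of IgG (6.30%), Iglc1 (22.3 CPM), Iglc3 (0.709 CPM), Iglv1 (18.5 CPM), Iglv3 (0.621 CPM) and Ighv1-5 (4.72 CPM). Mouse S2394 (Cpt1aCKO) passed it 6 times, in the leading heavy-chain V gene (77.5% of reads), the leading kappa V gene (82.9%), the leading kappa J segment (89.3%), Ighv3-6 (19.5 CPM), Igkv12-46 (71.2 CPM) and the Ighg3 share of IgG (9.28%).

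The other values were in S7601 the IgD share (0.0607%, the lowest floxed control) and Ighv1-75 (8.88 CPM), in S2578 Ighv1-84 (2.18 CPM) and Igkv4-74 (0.317 CPM), in S2577 Igkv12-44 (14.9 CPM), in S7602 Igkv4-61 (2.21 CPM) and the summed olfactory receptor genes (159 CPM), and in S2152 the latter (39.97 CPM).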

How the results depend on the processing

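No member passed the adjusted threshold in edgeR or DESeq2 under any alternative. Without the filter on low counts 222 members were tested, and the unadjusted p was below 0.05 for 9 with higher and 4 with lower values, against 2 and 2, with a median log2 fold change of 0.30 against 0.07. More low-count members enter that fit, and the shares over all genes in it are not given here. With single mice left out, 85 to 109 members were tested. These counts then ran from 0 to 3 (higher) and from 1 to 8 (lower), and the median from -0.52 (without S2397) to 0.48 (without S2582). The shares over all genes in those fits are not given here either. The difference between genotypes ran from -0.19 to 0.52 for the load (log2 ratio), from -21.1 to -0.90 points for the IgA share, from -3.42 to -1.58 points for the lambda share, and from -4.20 to 1.62 (heavy chain) and -6.89 to -1.06 (kappa) for the effective numbers. Thinning, a minimum of 10 reads and the exponential of the Shannon entropy gave -1.82, -1.47 and -4.19 for the heavy chain against -2.02, and -4.11, -4.94 and -4.26 for kappa against -4.36, where these 3 were chosen after seeing the data.

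Among 32 named members, 2 of 160 values with all mice kept changed sign, Ighv6-3 to -0.030 with the label numbers as a covariate and Iglc3 to -0.0017 without the filter. The cause was not tested. With a mouse left out, 40 of 343 did, with log2 fold changes of -0.72 to 0.64 for Ighg1, -0.095 to 1.56 for Ighg2b, -1.01 to 1.91 for Ighg3, -0.16 to 1.34 for Ighm, -1.60 to 0.87 for Ighv1-5, -0.15 to 1.18 for Ighv14-4, -0.22 to 0.76 for Ighv5-17, -0.77 to 0.51 for Ighv6-3, -1.48 to 2.51 for Ighv6-6, -0.068 to 0.63 for Igkc, -0.38 to 0.58 for Igkv1-110, -0.066 to 1.04 for Igkv1-117, -0.29 to 1.47 for Igkv12-44, -0.25 to 2.87 for Igkv12-46, -0.58 to 0.88 for Igkv19-93, -0.87 to 2.17 for Igkv8-30, -0.14 to 0.89 for Iglc2, -0.18 to 0.60 for Iglc3 and -0.99 to 0.093 for Iglv2. No paired analysis was possible because the labels pair no floxed control mouse with a Cpt1aCKO mouse, replicate numbers only name the mice, and which of them were littermates is not given in the sources used. V genes with few reads limit the precision, with 221 heavy-chain V reads in S2155.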

Other observations

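Reads on immunoglobulin V pseudogenes, which are not members, numbered 33 (S2394) to 322 (S2582) per mouse, and reads on D segments 0 to 7. The ratio of Jchain to the immunoglobulin load varied 1.67-fold over the 11 mice, lowest in S2397 and highest in S2578, while the load varied 11.6-fold.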
